A study of Homo sapiens with 4 samples.

Results

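The matrix metalloproteinase (MMP) genes of chromosome band 11q22 were examined in 3 chromatin maps of MHCC97L cells, an established human hepatocellular carcinoma line of low metastatic capacity. The 9 genes were taken by family and position from 19970 protein-coding genes on chromosomes 1 to 22 and X. They lie between positions 102520508 and 102955732 of chromosome 11 (hg38), in the order MMP7, MMP20, MMP27, MMP8, MMP10, MMP1, MMP3, MMP12 and MMP13. With 100000 bp added on each side, the region spanned 635 kb. It held 51 of 70028 summits of histone H3 acetylated at lysine 27 (H3K27ac), 46 of 86366 of histone H3 monomethylated at lysine 4 (H3K4me1) and 14 of 46078 of histone H3 trimethylated at lysine 4 (H3K4me3). The cells were untreated and labelled wild type, each mark was measured by chromatin immunoprecipitation and sequencing (ChIP-seq) in 1 library, and the input library, the fourth sample, was not analysed here. A summit is the highest point of a peak, and its score is the authors' −log10 of a p-value or q-value, used below only within the list of its mark. The region was picked with its summits in view and the stretch at MMP20 was selected on its number of H3K27ac summits and with its H3K4me1 share known, so these values are descriptions without a test. No RNA was measured, and in a bulk library a weak mark in every cell and a strong mark in few cells cannot be told apart.

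MMPs are zinc-dependent proteases that are made as inactive precursors, mostly secreted, and held in check by tissue inhibitors (TIMPs). They cut collagens, proteoglycans and other matrix proteins, and shed or activate cell surface and signalling proteins. The genes of this cluster are mostly silent in resting tissue, and several are known to be induced through AP-1 transcription factors bound close to their start sites. H3K4me3 marks promoters in use or poised for use, H3K4me1 marks enhancers and promoter flanks, and H3K27ac marks active promoters and enhancers.

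The promoters of MMP7, MMP10 and MMP20 are shown because the first was the promoter of the cluster that carried marks, while the others carry related letters and had none. Each is the RefSeq sequence (GRCh38.p14) of the 250 bases before the start site, on the minus strand, at chr11:102530748-102530997 for MMP7, chr11:102780629-102780878 for MMP10 and chr11:102625333-102625582 for MMP20. Capitals mark matches to the AP-1 letters TGANTCA, the ETS letters AGGAAG, which read CTTCCT where the match is on the opposite strand, and the letters TATAAA of a TATA box.
MMP7: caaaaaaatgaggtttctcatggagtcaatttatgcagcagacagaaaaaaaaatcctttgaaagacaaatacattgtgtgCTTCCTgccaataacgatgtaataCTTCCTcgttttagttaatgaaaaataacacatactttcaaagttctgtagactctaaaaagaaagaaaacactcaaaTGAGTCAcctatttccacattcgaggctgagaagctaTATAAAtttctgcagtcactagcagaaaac
MMP10: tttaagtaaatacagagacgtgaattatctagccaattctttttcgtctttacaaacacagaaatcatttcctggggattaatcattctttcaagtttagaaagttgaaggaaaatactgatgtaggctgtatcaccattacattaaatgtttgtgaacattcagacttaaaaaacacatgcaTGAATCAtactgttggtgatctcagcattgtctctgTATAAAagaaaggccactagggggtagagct
MMP20: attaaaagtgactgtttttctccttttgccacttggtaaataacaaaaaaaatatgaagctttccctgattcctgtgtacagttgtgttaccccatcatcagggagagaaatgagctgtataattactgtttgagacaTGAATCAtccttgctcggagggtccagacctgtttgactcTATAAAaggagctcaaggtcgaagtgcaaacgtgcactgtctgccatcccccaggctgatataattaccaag
The AP-1 letters began 67 bases before the start site in both MMP7 and MMP10, as TGAGTCA in MMP7 and TGAATCA in MMP10. In MMP20 they began 112 bases before it, as TGAATCA. The TATA letters began 30 bases before the start site in MMP7, 31 in MMP10, 72 in MMP20 and 110 in MMP8, a neutrophil collagenase gene. TGANTCA was found on either strand in 3 of the 5 promoters of the cluster that the RefSeq table held (MMP7, MMP20, MMP27, MMP8 and MMP10), against 5.05% of 15811 protein-coding promoters of the same length. The AP-1 consensus letters TGAGTCA occurred in 1 of the 5, that of MMP7, against 3.18% of all. TATAAA was found in 4 of the 5, against 9.25% of all, AGGAAG in 1 (MMP7, at 2 places), against 28.7%, and the RUNX letters TGTGGT in none, against 8.90%. No match to one of the AP-1, ETS and TATA letters overlapped a match to another, and a match is a description of letters and not a bound site. Promoters of MMP1, MMP3, MMP12 and MMP13 were not in the table.

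The cluster with its flanks fell into a marked part and a bare part. From the start of the region to the start of MMP27, 271 kb long, lay 50 of the 51 H3K27ac summits, all 46 H3K4me1 summits and 13 of the 14 H3K4me3 summits. Of these, 10 H3K27ac, 18 H3K4me1 and 7 H3K4me3 summits lay in the flank before MMP7, outside the MMP genes. That flank takes in part of TMEM123, which held the highest H3K4me3 summit of the region (76.6), and long noncoding RNA genes. The 364 kb from MMP27 onwards held 1 H3K27ac summit, 1 H3K4me3 summit and no H3K4me1 summit. Counting summits inside a gene or up to 1000 bp outside, MMP7 and MMP20 had all 3 marks, and MMP27, MMP8, MMP10, MMP1, MMP3, MMP12 and MMP13 had none. Marked members were thus 2 of 9 (22.2%, 95% Wilson interval 6.32 to 54.7, counting error only) for each mark, against 64.5% of protein-coding genes for H3K27ac, 40.4% for H3K4me1 and 69.0% for H3K4me3. Bare genes made up 7 of the 9 members (77.8%, 45.3 to 93.7), against 25.7% of all protein-coding genes.

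**Figure D1:**
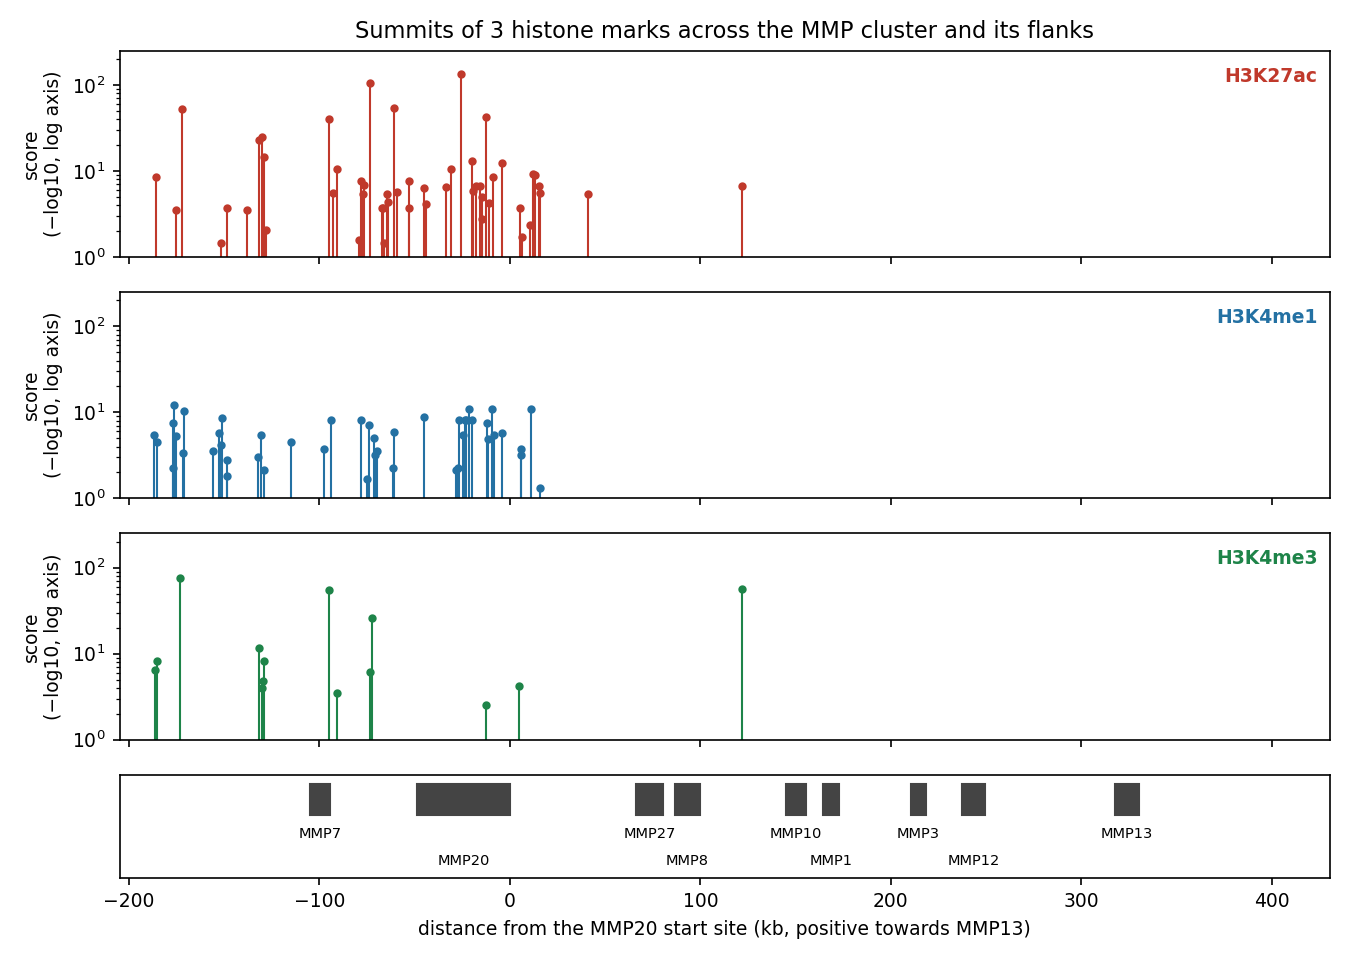
Score of every summit (vertical axes, −log10, log scale) of H3K27ac, H3K4me1 and H3K4me3 against its distance from the MMP20 start site in kb, positive towards MMP13, with the 9 MMP genes as boxes. The summits crowd from the flank before MMP7 to just beyond MMP20, and past MMP27 the H3K27ac and the H3K4me3 panel show 1 summit each.

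Over the whole region, H3K27ac had 8.03 summits per 100 kb, against 2.48 on chromosome 11 and 2.31 over chromosomes 1 to 22 and X. H3K4me1 had 7.24 per 100 kb, against 3.52 on chromosome 11 and 2.85 over all chromosomes. H3K4me3 had 2.20, against 1.67 and 1.52. The excess thus lay mainly in H3K27ac and H3K4me1, and within the 271 kb before MMP27 their densities were 18.5 and 17.0 per 100 kb. These values include flanks. The 435 kb of the cluster alone held 41 H3K27ac, 28 H3K4me1 and 7 H3K4me3 summits. In the 1 Mb before the region the densities were 4.60, 5.30 and 2.90 per 100 kb for H3K27ac, H3K4me1 and H3K4me3. In the 1 Mb after it they were 2.40, 2.30 and 0.60.

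H3K27ac summits were many but mostly low in score. Their median score in the region was 6.33, against 8.40 over all chromosomes, and 13 of 51 (25.5%) reached 10, against 43.5%. The median of the H3K4me1 summits was 5.36, against 4.58, and that of the H3K4me3 summits 7.30, against 8.23. All 14 H3K4me3 summits of the region had H3K27ac within 1000 bp, against 61.5% over all chromosomes, and 11 of the 14 had H3K4me1 as near, against 33.9%. Of the H3K27ac summits 26 of 51 (51.0%, 37.7 to 64.1) had H3K4me1 within 1000 bp, against 52.8% of all 70028, and 12 of 51 (23.5%, 14.0 to 36.8) had H3K4me3, against 42.5%.

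MMP7 encodes matrilysin, a small MMP that lacks the hemopexin-like domain of its relatives, is made by epithelial cells and is a known target of Wnt signalling. It was the member of the cluster with marks at its start site. The H3K4me3 summit, with a score of 54.9, lay 164 bp inside the gene. The H3K27ac summit, with a score of 40.3, lay 147 bp inside the gene and 17 bp from the H3K4me3 summit. An H3K4me1 summit with a score of 8.11 lay on the other side of the start site, 578 bp before it, and a weaker one (3.77) inside the gene, 2968 bp from the start site. MMP7 thus counted for 1 of 9 members with H3K4me3 at a boundary, against 56.8% of protein-coding genes. The same 1 of 9 was found for H3K27ac, against 54.1%, and for H3K4me1, against 12.4%.

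The scores at the MMP7 start site were ordinary for a marked promoter, while its sequence was not. Among 9283 start sites with H3K4me3 within 1000 bp the median best score was 53.4, and 48.6% reached that of MMP7. Among 8727 with H3K27ac the median was 30.1, and 36.0% reached that of MMP7. All 3 marks lay within 1000 bp of the start site, in 1 of the 5 members whose start site was in the table. Of 15811 protein-coding start sites 55.2% had H3K27ac, 5.5% H3K4me1, 49.9% H3K4me3 with H3K27ac and 2.71% all 3 marks as near. The 250 bases before the MMP7 start site held 3 CG dinucleotides, against a median of 22 for start sites with H3K4me3 and 6 for those without. Of the 2670 protein-coding promoters with 3 or fewer, 246 (9.21%) had H3K4me3 within 1000 bp, against 58.7% of all start sites. The other promoters of the cluster in the table were as poor, with 3 in MMP20, 2 in MMP10, 1 in MMP27 and 0 in MMP8, and none of those start sites had H3K4me3 within 1000 bp.

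**Figure D2:**
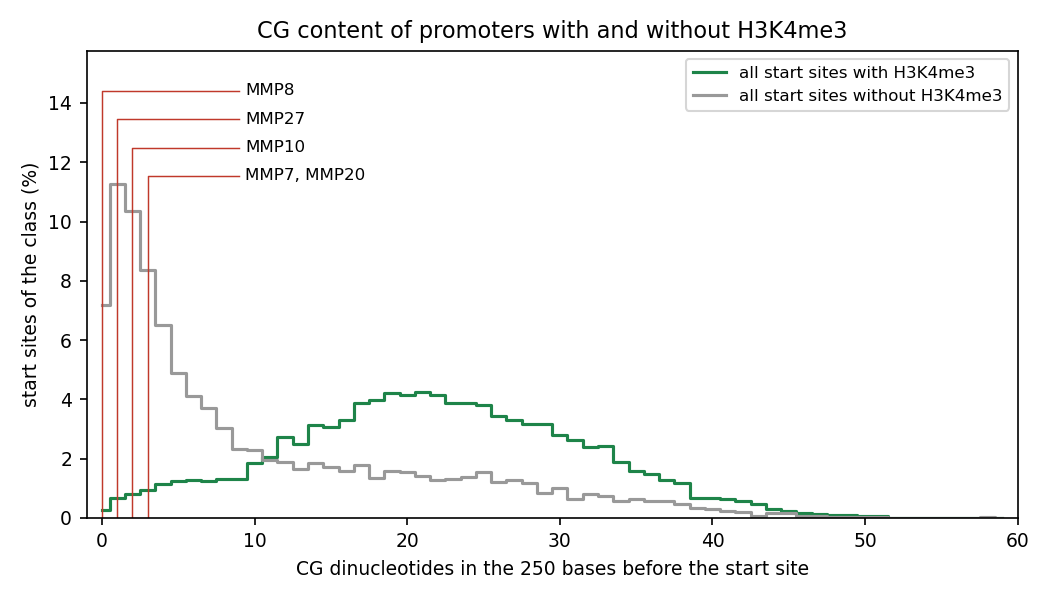
Share of start sites (vertical axis, percent of each class) by the number of CG dinucleotides in the 250 bases before the start site (horizontal axis), for protein-coding start sites with H3K4me3 within 1000 bp (green) and without it (grey). Red lines give the numbers of the 5 MMP promoters in the table, 0 to 3, and of these MMP7 had H3K4me3.

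Upstream of MMP7, towards MMP20, lay a run of H3K27ac summits without gene boundaries. The 46.1 kb between the genes held 16 H3K27ac, 9 H3K4me1 and 3 H3K4me3 summits. The summit with a score of 106 lay 21.3 kb before the MMP7 start site and ranked 539th of 70028 in its list. H3K4me1 (7.12) lay 483 bp from it, and H3K4me3 lay 19 bp (6.08) and 993 bp (26.3) from it. A further H3K27ac summit, with a score of 54.5, lay 33.8 kb before the start site, with H3K4me1 (5.96) at 88 bp and no H3K4me3 nearer than 11570 bp. The remaining 14 H3K27ac summits between the genes had scores from 1.47 to 10.5.

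MMP20 encodes enamelysin, a protease of tooth enamel formation that is made by ameloblasts and has no established role in liver. Its gene body carried 15 H3K27ac, 14 H3K4me1 and 1 H3K4me3 summit over 48.5 kb, and no mark lay within 1000 bp of either boundary. The nearest to its start site were H3K4me1 (5.68) at 4242 bp and H3K27ac (12.5) at 4256 bp, both inside the gene, and H3K4me3 (4.24) at 4738 bp before it. The H3K27ac summit with a score of 133 lay 25.4 kb inside the gene from its start site, which is 69.2 kb before the start site of MMP7. It was the 142nd highest of 70028 and the highest of the region. H3K4me1 summits stood on both sides of it, at 980 bp (5.42) and 1195 bp (8.11), and the nearest H3K4me3 summit was 13003 bp away. A second high summit (42.9), 12.4 kb inside the gene, had H3K4me3 (2.52) at 33 bp and H3K4me1 (7.47) at 404 bp. The other 13 had scores from 2.77 to 13.1.

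The 15 H3K27ac summits within MMP20 equal 3.09 per 10 kb of gene. As many or more were found in 437 of 19970 protein-coding genes (2.19%), with a median length of 191 kb. Of these, 10 were no longer than MMP20: BCAR1, DAZAP1, EEIG1, JAG1, RAC1, RARA, SLC7A5, SULT2B1, TPM4 and MMP20 itself, which are given as the whole of that count. Of the 437 genes, 147 had no H3K4me3 within 1000 bp of a boundary, as was the case for MMP20.

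Stitching showed how far the run reached. Distal H3K27ac summits, those more than 2500 bp from the ends of all annotated genes, were joined where neighbours lay under 12000 bp apart. The stretch at MMP20 then held 35 summits over 104 kb, from position 102534516 to 102638580, with 15 before MMP20 on the MMP7 side, 15 in the gene and 5 beyond it. It ranked 9th by number of summits among 15729 stretches, of which 6679 were lone summits. Among the 9050 stretches of 2 or more, 9 (0.0994%) held at least as many, this stretch included, and the median held 3. The next above it in number held 36 and the next below 34, and the highest number was 53. It was the 6th longest, and the longest reached 144 kb.

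Most summits of the stretch were low in score, as in the stretches that held more. Scores ran from 1.47 to 133 with a median of 6.33, against 6.72 for all 44001 distal H3K27ac summits, and 8 of 35 reached 10. In the 8 larger stretches the median scores ran from 4.16 to 6.70. Neighbouring summits were 1707.5 bp apart at the median, and the widest gap, 11528 bp, was close to the limit for joining. The next distal summits outside lay 38435 bp before and 27732 bp beyond the stretch. The rank depended on the settings. Joining only summits under 5000 bp apart left 10 summits and a rank of 143, and using only summits with a score of at least 10 left 5 and a rank of 101. Joining summits under 20000 bp apart kept 35 summits, at a rank of 28. With all H3K27ac summits joined, not only distal ones, the stretch held 39 and ranked 18th.

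**Figure D3:**
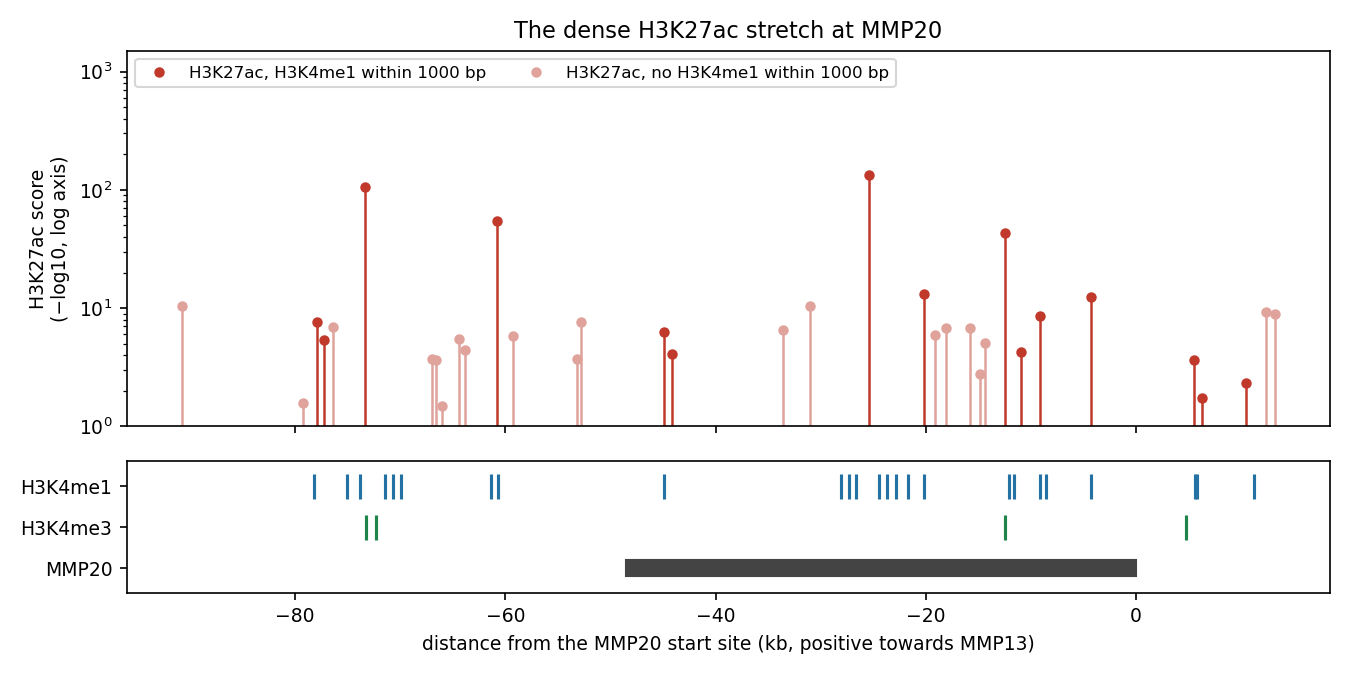
H3K27ac score (vertical axis, −log10, log scale) of the 35 summits of the stretch against their distance from the MMP20 start site in kb, dark where H3K4me1 lay within 1000 bp and pale where it did not, with H3K4me1 and H3K4me3 summits as ticks and the MMP20 gene as a bar below. The 6 highest summits are dark, and the pale ones have scores of 10.5 or less.

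The H3K4me1 share, which was known when the stretch was chosen, is given as a description. H3K4me1 lay within 1000 bp of 15 of the 35 (42.9%, 28.0 to 59.1), against 65.9% of all distal H3K27ac summits and 74.3% of the summits in the 8 stretches that held more. In those 8 the share ran from 44.0% to 94.6%, and the lowest of these was close to the 42.9% at MMP20. Among all 79 stretches of 20 or more summits the median share was 71.4%, and 3 had a lower share than the stretch at MMP20. Along the stretch the share was 4 of 15 before MMP20, 8 of 15 in the gene and 3 of 5 beyond it. These counts are small, and their differences were not tested. The share was 6 of 8 for summits with a score of at least 10 and 9 of 27 for lower ones. Among all distal summits it was 72.3% and 62.4% above and below that score. The median distance to the nearest H3K4me1 summit was 1131 bp, against 535 bp for all distal H3K27ac summits. With 500 bp allowed the share was 28.6%, against 48.3% of all distal summits, and with 2500 bp it was 68.6%, against 79.5%.

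By combination of marks, 12 of the 35 summits had H3K4me1 alone, 3 had H3K4me1 and H3K4me3, 1 had H3K4me3 alone and 19 had neither. Neither mark accompanied 54.3% of them, against 23.8% of all distal H3K27ac summits. In the span of the stretch lay 25 H3K4me1 summits and 4 H3K4me3 summits in all.

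**Figure D4:**
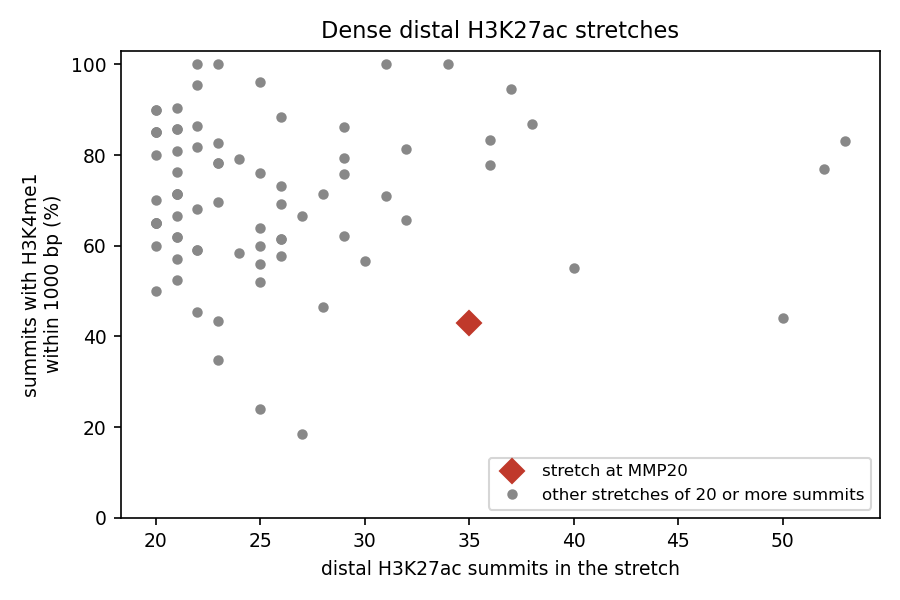
Share of H3K27ac summits with H3K4me1 within 1000 bp (vertical axis, percent) against the number of distal H3K27ac summits per stretch (horizontal axis) for the 79 stretches of 20 or more, with the stretch at MMP20 as a red diamond. It stands at 35 summits and 42.9%, and 3 of the grey points lie lower.

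Past the stretch the marks thinned out within MMP20-AS1, a long noncoding RNA gene. At its boundary nearest to MMP20 were H3K27ac summits of 6.62 and 5.55 and an H3K4me1 summit of 1.33, the last H3K4me1 summit of the region and its lowest. One more H3K27ac summit (5.44) lay inside it, 25.2 kb from MMP27. MMP27, a little studied member of the family, had its nearest H3K4me3 summit 41.6 kb away and its nearest H3K4me1 summit 50.2 kb away.

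Between MMP8 and MMP10 stood an H3K4me3 summit with no annotated gene boundary near it. Its score was 57.0 and its position 102747341, which is 22.4 kb before the start site of MMP8, 23.2 kb from the nearer end of MMP10 and 19.5 kb from the nearest boundary of any annotated gene. An H3K27ac summit with a score of 6.74 lay 124 bp away, and the nearest H3K4me1 summit was 106 kb away. Of 22172 H3K4me3 summits over 2500 bp from every boundary, 430 (1.94%) scored as high, and the median score was 5.58. Among those 430, this one included, 82.1% had H3K27ac within 1000 bp and 4.19% had H3K4me1.

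The collagenase, stromelysin and elastase genes beyond it were bare. From position 102747342 to 103087773, 340 kb, no summit of any mark was called, and this gap took in MMP10, MMP1, MMP3, MMP12 and MMP13. Gaps as long or longer made up 0.672% of 202449 gaps between neighbouring summits of any mark. The median gap was 770 bp, so this is a share of mostly short gaps and not of the length of the genome. Of the 1360 gaps as long or longer, 74 held 5 or more whole protein-coding genes and 742 held none. The WTAPP1 pseudogene, which overlaps MMP1, was bare as well. At its far end the gap closed inside DCUN1D5, a gene of cullin neddylation, which carried H3K4me3 at up to 79.2 and H3K27ac at up to 32.9.

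Among the collagenases, which cut fibrillar collagen, MMP8 lay 22.3 kb from its nearest summit, MMP1 42.6 kb and MMP13 132 kb. As far or farther from any summit were 14.8% of protein-coding genes for MMP8, 10.5% for MMP1 and 4.41% for MMP13. The stromelysins MMP10 and MMP3, which cut proteoglycans and activate other MMPs, lay 23.2 and 88.5 kb away, with 14.6% and 6.17% of genes as far. MMP12, the macrophage elastase, lay 115 kb away, with 4.93% of genes as far. For all 7 bare members except MMP27 and MMP8 the nearest summit was an H3K4me3 summit. At the files' lowest scores, 1.30 for H3K27ac, 1.33 for H3K4me1 and 1.31 for H3K4me3, a bare gene is one where no peak passed the authors' threshold, not one shown to lack the mark.

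**Figure D5:**
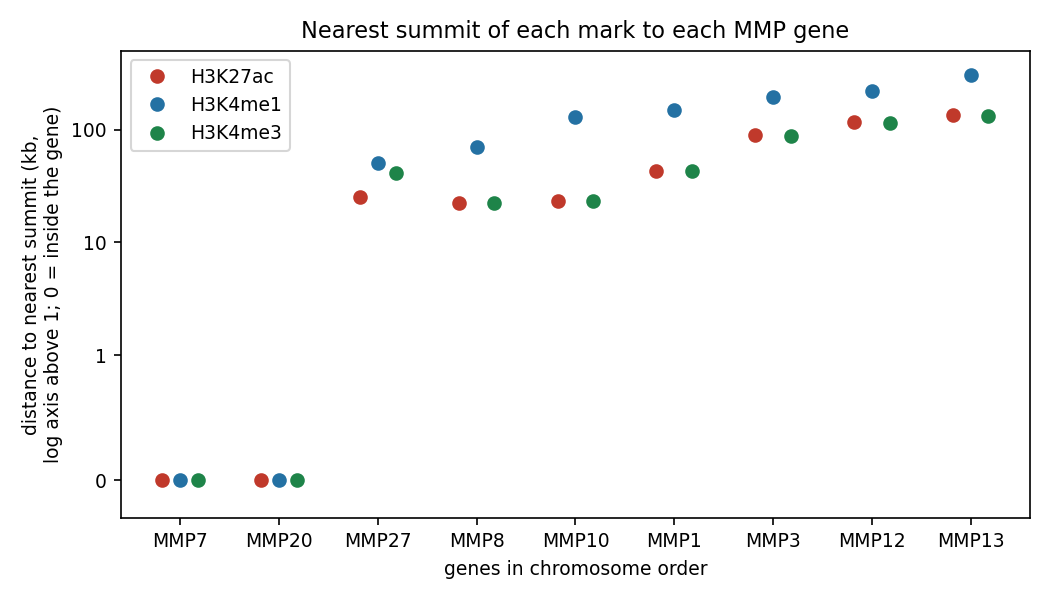
Distance in kb from each MMP gene, in chromosome order, to the nearest summit of H3K27ac, H3K4me1 and H3K4me3 (vertical axis, log scale above 1, with 0 for a summit inside the gene). MMP7 and MMP20 stand at 0 for each mark, and the others lie between 22.3 and 302 kb.

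Of 14 MMP genes elsewhere in the genome, 8 had H3K4me3 at a boundary, close to the 56.8% of all protein-coding genes. H3K27ac lay at a boundary of 2 of them, against 54.1% of all, and H3K4me1 at a boundary of 2, against 12.4%. No summit was found for 5, against 25.7% of all: MMP9, a gelatinase gene, MMP16, MMP19, MMP21 and MMP23B. H3K4me3 at a boundary was thus found in a larger share of these genes than of the cluster, where 1 of 9 had it. For H3K27ac and H3K4me1 the shares in both sets were close, but they do not all count start sites. The 1 in the cluster was the start site of MMP7. Elsewhere the 2 H3K4me1 hits lay at the far end of the gene, 11569 and 11595 bp from the start sites. In MMP24 the nearest H3K27ac summit lay 10952 bp from the start site. MMP28 was the other gene with H3K27ac at a boundary, and its start site was not known. The differences between the sets were not tested. The highest scores in the gene were 42.0 for H3K4me3 in MMP25, 92.5 for H3K27ac in MMP24 and 18.9 for H3K4me1 in MMP28.

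All 5 inhibitor genes had H3K4me3 and H3K27ac at a boundary, against 56.8% and 54.1% of protein-coding genes. Among them TIMP1 had the highest H3K4me3 score, 74.6, and TIMP2 the highest H3K27ac and H3K4me1 scores, 133 and 16.6. Of 8 genes of the plasminogen system and of precursor activation, which feed into MMP activation, 3 had H3K4me3, 3 had H3K27ac and 3 had H3K4me1 at a boundary, against 56.8%, 54.1% and 12.4% of all genes. Both H3K4me3 and H3K27ac lay somewhere in 5 of the 8, close to the 61.2% of all. PLG, the plasminogen gene, and SERPINB2 had no summit.

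All 13 genes of transcription factors known to act on MMP promoters had H3K4me3 and H3K27ac in the gene, against 61.2% of protein-coding genes. At a boundary 11 had H3K4me3, against 56.8% of all, and 9 had H3K27ac, against 54.1%. The AP-1 gene FOSL2 had the highest H3K4me3 score (113) and, with RUNX1, the highest H3K27ac score (87.5 in both), and it had the highest H3K4me1 score, 17.7. None of 6 enamel genes (AMELX, AMBN, ENAM, KLK4, AMTN and ODAM), which act with MMP20 in tooth enamel, had a summit of any mark. Of all protein-coding genes 25.7% had none. AMBN, ENAM, AMTN and ODAM are neighbours on chromosome 4, so the 6 genes are not independent.

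Marker genes were looked up for the labelled cell type. Of 11 hepatocyte and liver carcinoma genes, 7 had H3K4me3 and H3K27ac in the gene (among them HNF4A, KRT8 and KRT18), close to the 61.2% of all protein-coding genes. ALB, APOA2 and TTR had no summit and GPC3 had H3K4me1 alone. Of 9 leukocyte, endothelial and fibroblast markers, 3 had both marks (PTPRC, CD68 and PECAM1), a smaller share than that of all genes. VWF and PDGFRB had H3K27ac and H3K4me1, and CD3D, CDH5, COL1A1 and COL1A2 had no summit. Counts this near to or below the share of all genes do not settle the label either way.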

How the data were processed

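ChIP-seq libraries of H3K27ac, H3K4me1 and H3K4me3, 1 each, were used. The submitters' processing notes name hg38 as the build and, with no role or order, Bowtie, MACS2, Picard and deepTools. No label used here gives versions, settings or the role of the input. The deposited lists hold 1 line per summit with a position and a −log10 p-value or q-value, and which of the 2 is not stated there. This score depends on sequencing depth, which is unknown, and on background, so scores were not compared between marks. Peaks were called per library, no summit name carried the letter of a split peak, and peak numbers ran without a break through the region. Summits on chromosomes 1 to 22 and X were kept (273, 61 and 185 left out for H3K27ac, H3K4me1 and H3K4me3). Densities were taken over the length up to the last annotated gene of each chromosome.

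Genes and promoters came from RefSeq tables on GRCh38.p14, which shares chromosome coordinates with hg38. A gene was marked at a boundary by a summit within 1000 bp of its start or end. Start sites and strand were known for 15811 protein-coding genes. Counting used Python 3.11.15, pandas 2.3.3 and scipy 1.17.1 and was tested on simulated positions. With 1 library per mark no test was possible, and summits are not replicates, so the 95% Wilson intervals reflect counting error alone. Members, lists and motifs were chosen with earlier results of these data known, and TGAGTCA was added after the promoters had been searched. Named genes were the 9 members and annotated genes of the region that bear on a result, and of each list the highest score of each mark and every gene without a summit. The highest scores of the plasminogen list are not reported here. The marker lists were outside this rule, and their genes were named after their values were seen. Alternatives were other windows, flanks, joining distances and a score minimum of 10.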

Additional observations from a re-analysis of the deposited data

How the results depend on the processing

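Which part of the cluster was marked did not depend on the windows tried, while numbers of weak summits did. With a score of at least 10 the region held 13 H3K27ac, 5 H3K4me1 and 5 H3K4me3 summits, and without flanks 28 H3K4me1 and 7 H3K4me3 summits. MMP7 had H3K4me3 and H3K27ac at its start under every boundary window and score minimum tried, but its H3K4me1 summit was lost at 500 bp and at a score of 10 (0 members each). With the score minimum, 1 member had H3K4me1 and 1 had H3K4me3 anywhere in the gene. The share of H3K27ac summits in the region with H3K4me1 was 35.3% within 500 bp and 72.5% within 2500 bp, and in the stretch 68.6% within 2500 bp. With a score of at least 10 in both lists both shares were 0.0%, since 5 H3K4me1 summits of the region remained. Of all H3K4me1 summits 7.87% reached that score. With the minimum on H3K27ac alone, 4 of the 5 summits left in the stretch had H3K4me1. Shares over all 70028 H3K27ac summits are not given for these settings. Joining under 5000 bp left 10 summits in the stretch, and the score minimum 5. Depth is unknown, so the absence of a summit shows only that no peak passed the threshold. No paired analysis was possible because each mark had 1 library.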
